A study of Homo sapiens with 24 samples.

Results

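SK-N-AS and IMR-32, 2 human neuroblastoma cell lines, were compared through the arrays labelled with GFP (green fluorescent protein), the control transgene of the series. The comparison holds the 6 SK-N-AS and 6 IMR-32 arrays with that label, 12 of the 24 arrays, and they were chosen by cell line and transgene alone, with no measured value. Each line had 1 GFP-labelled array at 0 h and then at 6, 12 and 24 h, with later ones at 48 and at 96 h, so the lines were paired by hour and the hours stand in for replicates. The other 12 arrays hold the same lines and hours labelled with HOXC9, a homeobox transcription factor, and are used only where they are named. Total RNA was amplified, labelled with the dye Cy3 and hybridised to 1-colour oligonucleotide arrays. The labels do not say how the transgene was delivered or what drives it, whether a line was grown as 1 clone, whether the hours came from separate cultures, or whether 0 h precedes the onset of the transgene. The p-values therefore measure the spread between these arrays, which may be technical.

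Neuroblastoma arises from the sympathoadrenal lineage of the neural crest. Its cells range from a noradrenergic state, held by transcription factors such as PHOX2A, HAND2, GATA3 and ISL1 and marked by neuronal and catecholamine genes, to a mesenchymal state marked by vimentin, matrix proteins and the YAP and AP-1 factors. MYCN, a MYC family oncogene, is amplified in part of these tumours. IMR-32 is known as a line with such an amplification, and SK-N-AS as a line without it that expresses MYC instead. Copy number was not measured here.

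Levels below are log2 of the deposited intensity and are given as the lowest, the median and the highest of the 6 arrays of a line. Differences are SK-N-AS minus IMR-32 on that scale with their standard error (SE), so that a difference of 1 is 2-fold. Genes were tested with limma, two-sided and with the hour as a block. Calls are those with a p under 0.05 after Benjamini-Hochberg adjustment over 17199 genes. The files carry no detection flags. A level of 7.25 (153 units), the 40th percentile of genes, served as a dim level, and where the lower line lay under it the difference is given as "at least", counted against that level, with both lines' levels beside it. Levels are not compared between genes, since probes differ in brightness. In bulk RNA, fewer cells that express a gene and less RNA of that gene per cell cannot be told apart.

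The HOXC9 probe was read first, because the arrays are named by that transgene. It stood at 12.09, 12.35 and 12.47 in the SK-N-AS arrays labelled GFP and at 5.63, 6.02 and 6.25 in those of IMR-32, with no overlap between the lines. The HOXC9-labelled arrays differed from the GFP-labelled arrays by 4.09 in IMR-32 but by -0.57 in SK-N-AS, so the probe went against the labels in SK-N-AS. For that reason the comparison was also run with the SK-N-AS arrays labelled HOXC9 in place of those labelled GFP. This gave 11488 called genes against 11696, and 78.1% of the GFP calls were called the same way.

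A further pair of arrays stood apart within IMR-32. In the IMR-32 arrays of 0 and 48 h, 105 of 10381 genes with a mean above the dim level lay at least 2-fold under each of the other 4 hours, and 0 lay at least 2-fold above. The same hours held 22 lower and 6 higher genes in the SK-N-AS arrays labelled GFP, and 0 and 0 in the HOXC9-labelled arrays of either line. None of the 105 genes was among the 22. CENPE, a kinesin of the kinetochore, stood at 8.55 at 0 h and 9.69 at 48 h in IMR-32 and at 11.95 to 12.45 at the other hours. AKAP9, a scaffold protein of the centrosome, stood at 9.67 and 10.36 against 12.56 to 12.71, and the cilium gene CEP290 at 9.40 and 10.13 against 12.20 to 12.39. AKAP9 and CEP290 were picked after their values were seen. The 105 genes span a median of 82 kb in the annotation, against 26.7 kb over all tested genes. The latter include genes dim in IMR-32, from which the 105 were not drawn. The part of RNA quality in this was not tested. With 0 and 48 h dropped of both lines, a setting chosen after seeing the data, 11415 genes were called and 90.7% of the 11696 calls were kept the same way. For the 105 genes, however, the calls turned from 31 higher in SK-N-AS and 5 higher in IMR-32 to 33 and 39. The direction of that shift was fixed by the choice of the genes, since they were picked as low at the dropped hours.

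Over all genes, 11696 were called (68.0%), 6595 higher in SK-N-AS (38.3%) and 5101 higher in IMR-32 (29.7%). At least 2-fold differences were called for 5876 genes (34.2%), 3290 of them (19.1%) higher in SK-N-AS and 2586 (15.0%) higher in IMR-32. The median difference over all genes was 0.13, and 10653 of the calls (91.1%) had the same sign at each hour. These shares are the background against which each gene list below is read. Arrays of the same line correlated at 0.983 or more, and arrays of different lines at 0.873 to 0.888. Of the 5876 2-fold calls, 2274 concerned genes above the dim level in both lines, 727 genes dim in IMR-32 alone, 792 genes dim in SK-N-AS alone and 2083 genes dim in both.

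**Figure D1:**
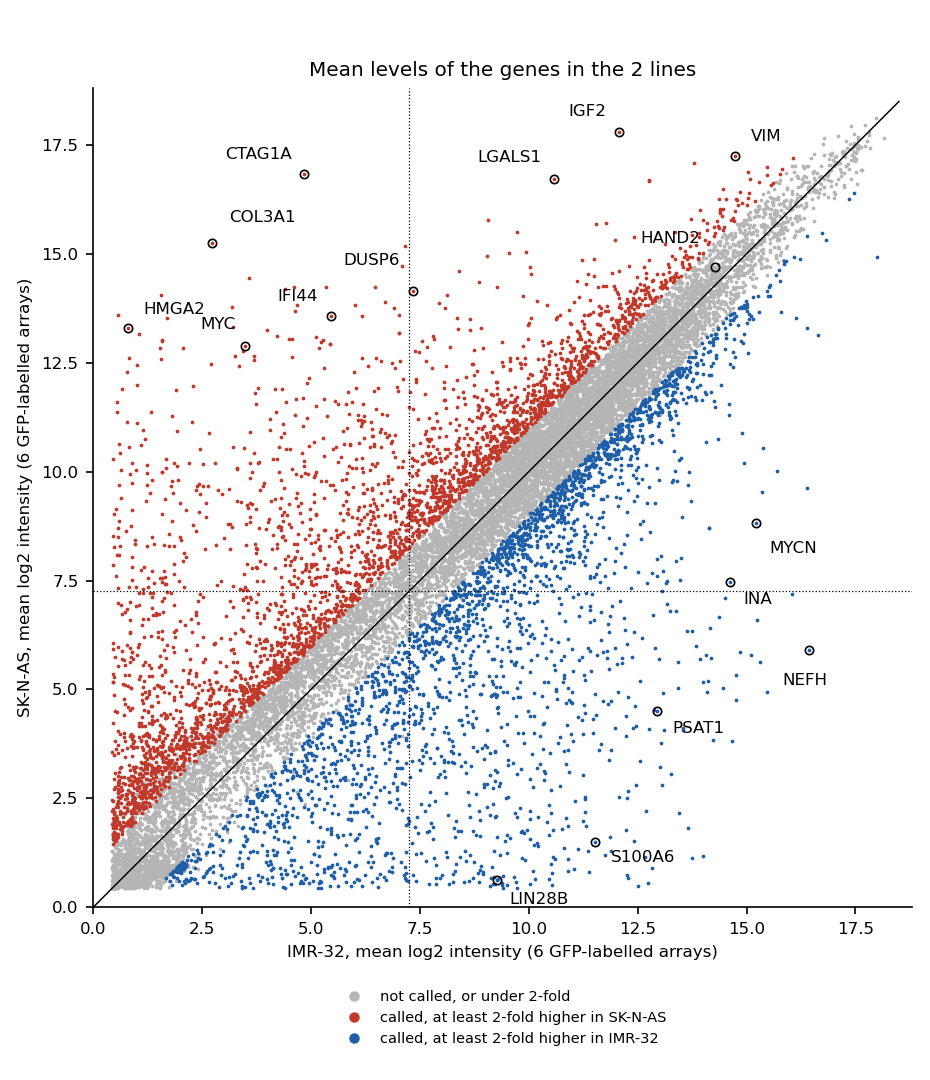
Mean log2 intensity of each gene in the 6 SK-N-AS (vertical axis) and the 6 IMR-32 (horizontal axis) GFP-labelled arrays. Each point is a gene, coloured points were called and differ at least 2-fold, the dotted lines mark the dim level of 7.25, and the diagonal marks equal levels. IGF2, LGALS1 and VIM lie above the diagonal in genes that both lines express, and MYCN and INA lie below it.

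Among genes above the dim level in both lines, the 10 furthest toward SK-N-AS were DUSP6, CRABP1, PTN, LGALS1, KAZALD1, MXRA8, VIP, PRAME, IGF2 and USP18, at differences of 5.68 to 6.79. LGALS1 encodes galectin-1, a secreted lectin of mesenchymal cells, and stood at 16.37, 16.81 and 16.93 in SK-N-AS against 10.25, 10.64 and 10.70 in IMR-32. PTN encodes the heparin-binding growth factor pleiotrophin and differed by 6.2 ± 0.15 (adjusted p = 1.26e-07). The 10 genes furthest toward IMR-32 were INA, ANTXR1, MYCN, KIF1A, RAB34, TMEM145, TLCD3B, NAG, GALNT16 and VWCE, at -7.16 to -5.44. INA encodes the neuronal intermediate filament alpha-internexin and stood at 7.15, 7.49 and 7.74 in SK-N-AS against 14.50, 14.66 and 14.67 in IMR-32. For ANTXR1, an anthrax toxin receptor of the cell surface, the 2 other probes read -7.05 and 0.56, so its probes disagree. NAG is kept as the platform names it, since the symbol has more than 1 possible current name.

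Of genes bright in SK-N-AS and dim in IMR-32, the brightest were CTAG1A, COL3A1, IFITM3, RGS5, MAGEA2B and IFI16. Each was at least 128-fold above the dim level in SK-N-AS. RGS5, a regulator of G protein signalling known from pericytes, stood at 14.42, 14.82 and 14.98 in SK-N-AS and at 5.96, 7.44 and 7.60 in IMR-32. On the other side stood NEFH, DUSP26, OCIAD2, GSTM3, LRATD1 and CKMT1B, bright in IMR-32 but dim in SK-N-AS. DUSP26, a phosphatase of the nervous system, stood at 16, 16.04 and 16.13 in IMR-32 against 6.62, 7.21 and 7.68 in SK-N-AS. GSTM3, a glutathione transferase, stood at 15.23, 15.28 and 15.44 against 5.35, 5.60 and 6.03. CKMT1B has a near-identical copy, so its probe may read either.

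The MYC family split the lines. MYCN stood at 8.38, 8.87 and 9.05 in SK-N-AS and at 14.86, 15.34 and 15.40 in IMR-32, a difference of -6.39 ± 0.16 (adjusted p = 1.24e-07), or 83.9-fold. Its 3 other probes ran from -14.68 to -2.98, all toward IMR-32. MYC, the founding member of the family, stood at 12.63, 12.86 and 13.10 in SK-N-AS and at 3.14, 3.45 and 3.89 in IMR-32, at least 49.2-fold higher in SK-N-AS (adjusted p = 1.12e-08), while its other probe read 1.84. MYCL lay under the dim level in both lines. Neither oncogene's levels overlapped between the lines on the chosen probes.

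Of the 25 measured genes near MYCN on the short arm of chromosome 2, 11 were higher in IMR-32, 9 higher in SK-N-AS and 5 not called, with a median of -0.35. DDX1, an RNA helicase often amplified with MYCN, stood at 14.61, 14.93 and 15.15 in SK-N-AS and at 17.92, 17.97 and 18.05 in IMR-32, an 8.42-fold difference (adjusted p = 1.78e-07). The oestrogen-responsive gene GREB1 and the neuronal calcium sensor VSNL1 stood at 9.25 and 7.46 (medians) in IMR-32, whereas SK-N-AS was dim. LRATD1 stood at 14.92, 15.29 and 15.48 against 6.17, 6.64 and 7.04 in IMR-32 and SK-N-AS. ALK, a receptor kinase gene of the same arm that was listed with the receptor kinases, stood at 12.79, 12.92 and 13.01 in IMR-32 against 4.73, 5.90 and 7.25, at least 50.3-fold. ODC1, the rate-limiting enzyme of polyamine synthesis and a MYC target, differed by -1.15 ± 0.12 (adjusted p = 0.000165). Other genes of the list went the opposite way. LAPTM4A differed by 0.65 ± 0.09, TRIB2 by 0.40 ± 0.10 and ROCK2 by 1.24 ± 0.25. SMC6, a chromosome maintenance gene of the arm, differed by 1.1 ± 0.28, and it is among the 105 genes that stood low at 0 and 48 h in IMR-32. Without those hours it differed by 0.62.

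Genes that MYC proteins are known to activate were divided between the lines. Of 32 measured MYC target genes of ribosome and nucleotide synthesis, 10 were higher in SK-N-AS, 13 higher in IMR-32 and 9 not called, with a median of -0.20. RRP9, a nucleolar RNA processing factor, differed by -1.85 ± 0.20, IMPDH2, an enzyme of guanine nucleotide synthesis, by -1.91 ± 0.08 and the nucleolar GTPase GNL3 by -1.20 ± 0.12, all toward IMR-32. GART, of purine synthesis, differed by 1.11 ± 0.07 and EBNA1BP2, of ribosome assembly, by 1.01 ± 0.15 toward SK-N-AS. In the MYC and MAX network, 3 of 13 genes were higher in SK-N-AS and 6 in IMR-32. Among the latter were the antagonists MXD1 at -1.06 ± 0.12 and MNT at -0.91 ± 0.12. The other MNT probe read -0.13 and was not called.

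The LIN28 and IGF2BP genes, RNA-binding oncofetal proteins tied to the let-7 miRNAs, divided between the lines. LIN28B, which blocks let-7 maturation, stood at 8.85, 9.39 and 9.42 in IMR-32 against 0.59, 0.62 and 0.64 in SK-N-AS, near the lowest intensity of the data. HMGA2, a chromatin protein whose mRNA is a let-7 target, had the opposite pattern, at 13.14, 13.32 and 13.51 in SK-N-AS and 0.66, 0.79 and 1.01 in IMR-32, at least 66.5-fold (adjusted p = 3.77e-10, the smallest of the comparison). IGF2BP2 stood at 11.29, 11.35 and 11.80 in SK-N-AS against 5.62, 6.64 and 7.02, IGF2BP3 differed by 1.46 ± 0.09 and IGF2BP1 by -0.53 ± 0.09. IGF2 itself, a fetal growth factor, stood at 17.65, 17.76 and 18.05 in SK-N-AS and at 11.76, 11.96 and 12.82 in IMR-32, a 53.5-fold difference. The related HMGA1 was higher in IMR-32, at -1.62 ± 0.11.

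Both lines expressed part of the noradrenergic core. HAND2, a bHLH factor of sympathetic neurons, stood at 14.63, 14.66 and 14.87 in SK-N-AS and at 14.08, 14.33 and 14.42 in IMR-32, a difference of 0.42 ± 0.08 (adjusted p = 0.00251). With the SK-N-AS arrays labelled HOXC9 in its place, HAND2 differed by -0.07. PHOX2A, a homeobox factor that switches on noradrenergic genes, stood at 12.73, 13.18 and 13.63 against 12.91, 13.75 and 14.19, so the lines overlapped. Its call was lost on leaving out 0, 6, 48 or 96 h and without the hour as a block (adjusted p = 0.0763). The PHOX2A difference of -0.47 ± 0.17 became 0.64, not called, with the HOXC9-labelled SK-N-AS arrays. The other PHOX2A probe read -0.93 ± 0.08 in the GFP-labelled arrays, toward IMR-32, and was called. Over the list of noradrenergic transcription factors, 11 of 18 measured genes were higher in IMR-32, 3 in SK-N-AS and 4 were not called, with a median of -0.98, against 29.7% and 38.3% of all genes. All 9 of the members called at least 2-fold were higher in IMR-32.

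GATA2, a zinc finger factor of the sympathetic lineage, stood at 8.52, 8.97 and 9.83 in SK-N-AS and 11.13, 11.34 and 11.50 in IMR-32 (difference -2.31 ± 0.16). GATA3 differed by -1.12 ± 0.09, the LIM homeobox factor ISL1 by -3.09 ± 0.17 and the LIM-only oncogene LMO1 by -3.75 ± 0.18. HAND1, the relative of HAND2, stood at 12.22, 12.40 and 12.50 in IMR-32 against 5.50, 5.79 and 5.83 in SK-N-AS, at least 34.7-fold. LMO3, TFAP2B and ZNF536 stood at 9.23 or more in each IMR-32 array and at 3.25 or less in each SK-N-AS array. INSM1, a zinc finger factor of neuroendocrine cells, went the other way, at 0.72 ± 0.19, and turned to -0.68 with the HOXC9-labelled SK-N-AS arrays.

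Catecholamine genes did not move together. Of 12 measured members, 5 were higher in SK-N-AS, 4 in IMR-32 and 3 not called. TH, tyrosine hydroxylase, the first enzyme of the pathway, stood at 8.91, 9.03 and 9.45 in IMR-32 against 2.69, 3.75 and 4.02 in SK-N-AS, but its other probe read -0.02. DDC, the decarboxylase that makes dopamine, stood at 13.65, 13.83 and 13.98 in IMR-32 against 5.46, 6.10 and 6.46 in SK-N-AS, at least 95.1-fold (adjusted p = 4.88e-08). DBH, which makes noradrenaline from dopamine, was higher in SK-N-AS, at 10.34, 11.50 and 12.24 against 8.67, 9.09 and 9.47. The noradrenaline transporter SLC6A2 overlapped between lines, with a difference of 0.56 ± 0.18 whose call was lost without the arrays of 0, 6 or 48 h and without the hour as a block (adjusted p = 0.0706). With the HOXC9-labelled SK-N-AS arrays, DBH differed by -1.16 and SLC6A2 by -1.92.

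Genes of peptide secretion were mixed as well. Of 17 granins, neuropeptides and their processing enzymes, 7 were higher in SK-N-AS and 6 in IMR-32. VIP, vasoactive intestinal peptide, stood at 14.71, 14.90 and 15.45 in SK-N-AS and 8.43, 9.08 and 9.49 in IMR-32, a 60.6-fold difference. The granin CHGB stood at 7.38, 9.10 and 10.04 against 13.39, 13.55 and 13.64, and SCG3 at 6.51, 7.25 and 8.02 against 12.70, 13.18 and 13.26. Chromogranin A, CHGA, differed by 1.37 ± 0.19 toward SK-N-AS. With the HOXC9-labelled SK-N-AS arrays it differed by -0.22 and was not called. Neuropeptide Y, NPY, was higher in IMR-32, at 8.11, 8.39 and 8.54 against 5.87, 6.43 and 6.76, and stood at 1.37 with those arrays.

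Acetylcholine genes split by subunit. CHRNA3, a nicotinic receptor subunit of autonomic ganglia, stood at 16.13, 16.20 and 16.44 in SK-N-AS and 14.23, 14.58 and 14.80 in IMR-32. CHRNB2, a subunit of central neurons, was bright in IMR-32 alone, at 11.26, 11.59 and 11.65 against 3.92, 4.37 and 4.86. The synthetic enzyme CHAT was dim in both lines.

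Neuronal structural genes had the lowest median difference of the 47 lists. Of 18 measured neuronal cytoskeleton genes, 14 were higher in IMR-32 against 2 in SK-N-AS, with a median of -3.46. The neurofilament subunit NEFM stood at 14.65, 14.79 and 14.88 in IMR-32 against 4.30, 4.77 and 5.13 in SK-N-AS, at least 183-fold, while its other probe read 0.32. NEFH, the heavy subunit, stood at 16.32, 16.40 and 16.53 against 5.02, 5.99 and 6.41, at least 577-fold (adjusted p = 2.97e-08). STMN2, which regulates microtubules in growing axons, and CRMP1, a phosphoprotein of growth cones, were bright in IMR-32 but dim in SK-N-AS by at least 116-fold and 112-fold. DPYSL3, of the same family as CRMP1, went the opposite way, at 14.65, 15.09 and 15.16 in SK-N-AS against 9.36, 9.54 and 9.71.

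Synaptic genes followed the same direction. Of 22 measured genes of synaptic vesicles and active zones, 16 were higher in IMR-32, 1 in SK-N-AS and 5 were not called, with a median of -1.85. The release factors UNC13A and CPLX1 stood at medians of 10.36 and 11.28 in IMR-32 against 3.57 and 4.42 in SK-N-AS. BSN, the active zone protein bassoon, stood at 11.30, 11.40 and 11.49 against 5.01, 5.78 and 6.61. Channel genes gave 16 higher in IMR-32 against 10 in SK-N-AS of 34, among the former the potassium channels KCNC1 at -4.16 ± 0.22 and KCNK3, which was dim in SK-N-AS. The sodium channel SCN9A was higher in SK-N-AS, at 5.23 ± 0.11 (adjusted p = 5.66e-08).

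Axon guidance genes were divided, with 19 of 39 higher in SK-N-AS and 16 in IMR-32. Reelin, RELN, a secreted guidance protein, stood at 10.53, 10.61 and 10.71 in SK-N-AS and at 0.78, 1.00 and 1.58 in IMR-32. EPHA3, an ephrin receptor counted with the receptor kinases, was likewise bright in SK-N-AS alone, at 10.86, 11.15 and 11.34. The semaphorin SEMA5A, the semaphorin receptor NRP2 and the netrin receptor UNC5A were bright in IMR-32 alone, at medians of 9.33, 9.95 and 9.51.

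Matrix and mesenchymal surface genes were the counterpart in SK-N-AS. Of 32 measured collagens and matrix glycoproteins, 26 were higher in SK-N-AS, 3 in IMR-32 and 3 not called, with a median of 2.55. Collagen III, COL3A1, stood at 14.83, 15.35 and 15.46 in SK-N-AS and 0.52, 3.14 and 3.37 in IMR-32, at least 253-fold (adjusted p = 6.73e-07). Collagen I, COL1A1, stood at 13.25, 13.86 and 14.33 against 4.27, 4.72 and 5, and the proteoglycans DCN and LUM were at least 122-fold and 47.5-fold higher. Exceptions were the elastic fibre gene FBN1 and the collagen crosslinking enzyme LOX, bright in IMR-32 alone at medians of 9.49 and 8.48. For fibronectin, FN1, the chosen probe differed by 2.36 ± 0.15, and its 4 other probes ran from -1.33 to 2.50.

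Of 29 mesenchymal surface, cytoskeleton and caveola genes, 25 were higher in SK-N-AS and 3 in IMR-32, with a median of 1.76. Vimentin, VIM, an intermediate filament of mesenchymal cells, stood at 17.14, 17.27 and 17.30 in SK-N-AS and at 14.62, 14.76 and 14.86 in IMR-32, a 5.70-fold difference (adjusted p = 2.03e-07). ANXA1, S100A10 and S100A11, of the annexin and S100 families, were bright in SK-N-AS and dim in IMR-32 by at least 59.3-fold, 67.1-fold and 19.6-fold. S100A6, of the same gene cluster, had the opposite pattern, at 11.35, 11.57 and 11.65 in IMR-32 against 0.52, 1.42 and 2.87 in SK-N-AS. The surface marker THY1 was also higher in IMR-32, at -1.26 ± 0.12. CD44, an adhesion receptor used as a mesenchymal marker, was under the dim level in both lines on its chosen probe, and its 4 other probes ran from -1.02 to 1.08.

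The transcription factors named for the mesenchymal state were less one-sided than its matrix genes. Of 30 measured regulators, 15 were higher in SK-N-AS, 7 in IMR-32 and 8 not called, with a median of 0.29. With dim genes left out before the fit, 2 members were called higher in SK-N-AS. The IMR-32 count of 7 was not among the list counts that moved with that filter. The filter goes by the mean over both lines, so genes bright in SK-N-AS alone can drop out with it. The fall to 2 therefore cannot tell whether the lean to SK-N-AS rested on dim genes. PRRX1, a homeobox factor of that state, was dim in both lines, at up to 2.69 in SK-N-AS and 3.31 in IMR-32. SNAI2 stood at 8.66, 9.88 and 10.35 in SK-N-AS and 9.22, 9.52 and 9.86 in IMR-32, so the lines overlapped, and its difference was 0.13 ± 0.27 (adjusted p = 0.676). TWIST1 overlapped too, at -0.17 ± 0.10. With the HOXC9-labelled SK-N-AS arrays in place of the GFP-labelled ones, SNAI2 differed by 1.6 and TWIST1 by -1.72, both called. TWIST2 and the T-box factor TBX18 were bright in SK-N-AS alone, at medians of 9.72 and 7.76, and the AP-1 factor FOSL1 was mostly under the dim level in both lines.

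The co-activators of the Hippo pathway were bright in SK-N-AS alone. WWTR1, which encodes TAZ, stood at 10.48, 10.76 and 11.05 in SK-N-AS and 0.42, 0.49 and 2.92 in IMR-32, and YAP1 at 9.48, 9.64 and 9.95 against 0.46, 2.92 and 3.73. Of 20 genes listed as YAP and TEAD targets, 13 were higher in SK-N-AS, 5 in IMR-32 and 2 not called, with a median of 2.31. With dim genes left out before the fit, 5 were higher in SK-N-AS. The IMR-32 count of 5 was not among the list counts that moved with that filter. Since it goes by the mean over both lines, targets bright in SK-N-AS alone can be removed by it. The lower count therefore does not show that the excess of 13 over 5 rested on dim genes. In a separate setting, the mean of all probes, the count for IMR-32 was 2. The matricellular CCN1 stood at 12.63, 13.41 and 15.36 in SK-N-AS, highest at 48 h, and at 3.77, 4.72 and 5.16 in IMR-32. The LIM protein AJUBA stood at 10.63, 11.16 and 12.35 against 4.39, 4.95 and 5.19, and the kinase LATS2 at 9.62, 9.81 and 10.16 against 2.76, 3.45 and 5.05. Members higher in IMR-32 included the growth regulator FJX1, at -1.32 ± 0.14, and the TEAD repressor VGLL4, at -1.08 ± 0.07.

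Of 17 integrins, 11 were higher in SK-N-AS and 3 in IMR-32, with a median of 1.35. ITGB5, a vitronectin receptor subunit, stood at 11.11, 12.01 and 12.27 in SK-N-AS and 3.65, 4.23 and 4.54 in IMR-32. ITGA4, a fibronectin receptor subunit of the neural crest, was higher in IMR-32, at -1.12 ± 0.09, and stood at 0.97 with the HOXC9-labelled SK-N-AS arrays.

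**Figure D2:**
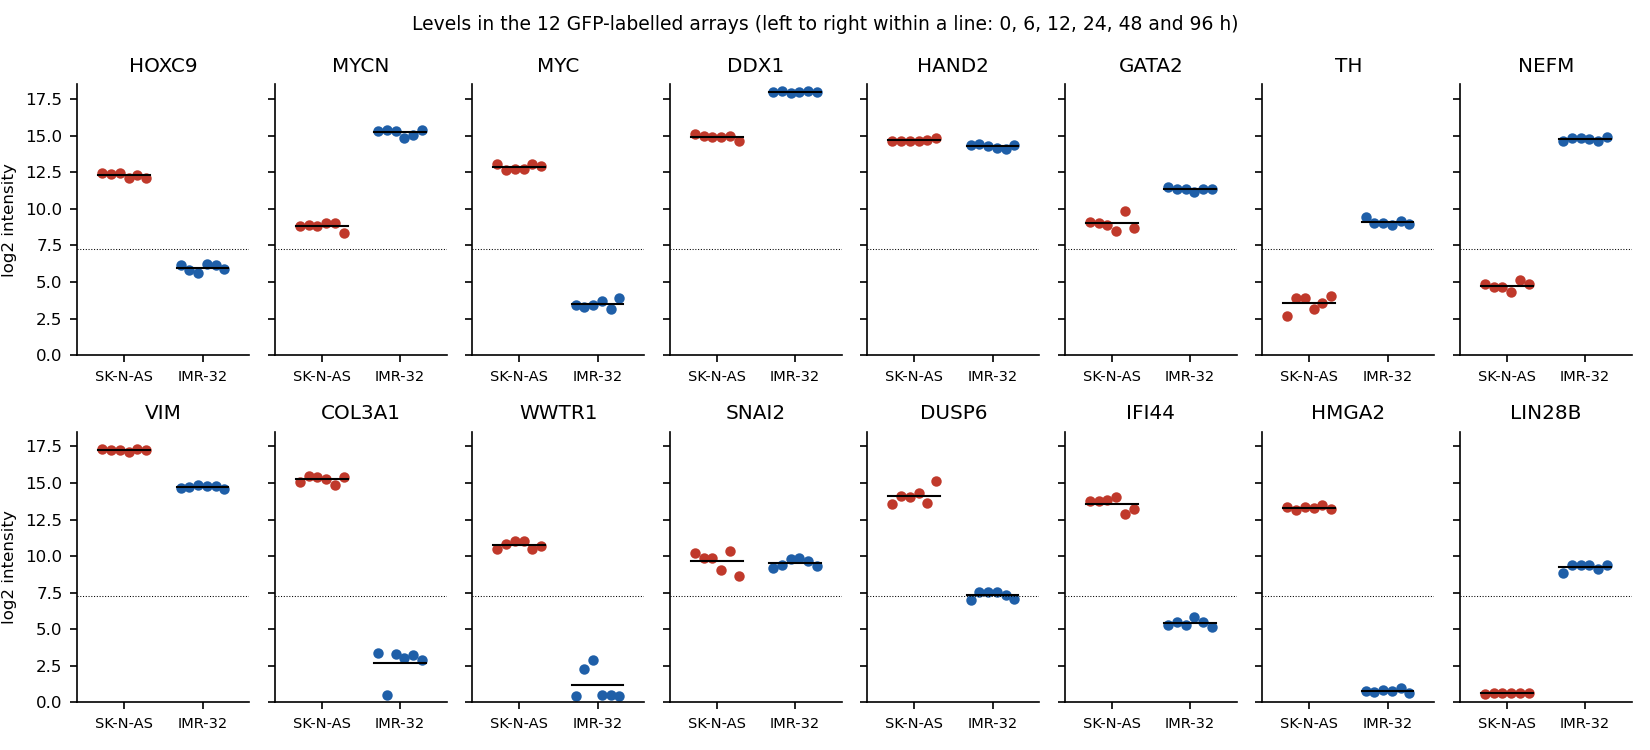
Log2 intensity of 16 genes in the 12 GFP-labelled arrays, with SK-N-AS in red on the left and IMR-32 in blue on the right of each panel. Each point is an array in order of hour, black bars are the means of 6 arrays, and the dotted line is the dim level of 7.25. The lines do not overlap for MYCN, MYC, DDX1, NEFM, COL3A1 or HMGA2, whereas they overlap for SNAI2.

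The feedback and target genes of the RAS and ERK pathway had the highest median difference of the 47 lists. ERK signalling is known to induce such genes, and some of them restrain it in turn. Of 18 measured members, 17 were higher in SK-N-AS, each at least 2-fold, and 1 was higher in IMR-32, with a median of 4.68. DUSP6, the phosphatase of ERK, stood at 13.55, 14.09 and 15.16 in SK-N-AS and 7.02, 7.44 and 7.58 in IMR-32, a difference of 6.79 ± 0.24 (adjusted p = 7.40e-07). SPRY1, a Sprouty inhibitor, stood at 12.14, 12.40 and 12.86 against 0.62, 0.78 and 2.30, and the ETS factor ETV4 at 10.69, 11.12 and 11.32 against 4.36, 4.69 and 5.43. PHLDA1 stood at 12.08, 12.33 and 12.63 against 6.53, 6.94 and 7.22. The member higher in IMR-32 was CCND1, the cyclin D1 gene, at -1.04 ± 0.08.

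Of 42 receptor tyrosine kinases, 28 were higher in SK-N-AS and 9 in IMR-32, with a median of 0.98. These counts were 13 and 5 with dim genes left out before the fit. RET, the GDNF family receptor, stood at 12.04, 12.63 and 13.09 in SK-N-AS and 6.21, 6.45 and 6.86 in IMR-32, at least 40.9-fold (adjusted p = 1.24e-07), the reverse of ALK. MERTK stood at 10.59, 10.72 and 11.10 against 5.18, 5.24 and 5.39, PDGFRA differed by 2.04 ± 0.19 and EGFR by 1.47 ± 0.27. KIT, FGFR2 and NTRK3, the neurotrophin-3 receptor, were bright in IMR-32 alone, at medians of 10.15, 9.79 and 8.64. NGFR, the p75 neurotrophin receptor, counted with the neural crest genes, stood at 8.72, 9.46 and 9.79 in SK-N-AS and 3.75, 4.29 and 4.86 in IMR-32. MET was dim in both lines. For NTRK2 the chosen probe was dim in both lines and its other probes ran from -6.03 to -1.02, toward IMR-32.

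Interferon-stimulated genes, the antiviral genes that interferon signalling switches on through the ISGF3 complex, were bright in SK-N-AS. Of 32 measured members, 26 were higher in SK-N-AS, 25 of them at least 2-fold, 2 higher in IMR-32 and 4 not called, with a median of 2.97, and 21 lay above the dim level in SK-N-AS against 6 in IMR-32. With genes whose mean over both lines was dim left out before the fit, 11 were called higher in SK-N-AS. IFI44 stood at 12.88, 13.76 and 14.01 in SK-N-AS and 5.16, 5.42 and 5.87 in IMR-32, at least 79.6-fold (adjusted p = 4.04e-08). IFI16, a sensor of DNA, stood at 13.91, 14.33 and 14.41 against 4.24, 4.62 and 5.01, and BST2, the tetherin that holds virions at the cell surface, at 12.19, 12.65 and 13.04 against 2.91, 3.69 and 4.36. USP18, which removes the ubiquitin-like ISG15 from proteins, differed by 5.68 ± 0.18. IFI27 was an exception, at 9.38, 9.40 and 9.57 in IMR-32 against 7.03, 7.16 and 7.46.

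The bases before the start of 4 genes of this list are shown because the letters GAAA, any 2 bases (NN) and GAAA in a row, the core that ISGF3 binds, were searched in them on both strands. Each stretch holds the 250 bases before the RefSeq start in GRCh38.p14, 5′ to 3′ on the gene's strand, and capitals mark the element or its reverse complement, overlapping matches included. The stretches are chr1:1013247-1013496 (plus strand) for ISG15, chr1:78649539-78649788 (plus strand) for IFI44, chr11:313790-314039 (plus strand) for IFITM1 and chr19:17405631-17405880 (minus strand) for BST2.
ISG15: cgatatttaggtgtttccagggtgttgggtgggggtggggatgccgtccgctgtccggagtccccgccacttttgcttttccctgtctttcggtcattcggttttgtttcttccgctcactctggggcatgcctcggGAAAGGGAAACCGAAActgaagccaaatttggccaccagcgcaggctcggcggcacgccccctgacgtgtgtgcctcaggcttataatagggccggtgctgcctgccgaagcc
IFI44: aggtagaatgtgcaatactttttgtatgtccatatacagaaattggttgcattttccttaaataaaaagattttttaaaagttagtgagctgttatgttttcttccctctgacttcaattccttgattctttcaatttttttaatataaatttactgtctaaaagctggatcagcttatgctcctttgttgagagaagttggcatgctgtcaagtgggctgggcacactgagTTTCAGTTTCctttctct
IFITM1: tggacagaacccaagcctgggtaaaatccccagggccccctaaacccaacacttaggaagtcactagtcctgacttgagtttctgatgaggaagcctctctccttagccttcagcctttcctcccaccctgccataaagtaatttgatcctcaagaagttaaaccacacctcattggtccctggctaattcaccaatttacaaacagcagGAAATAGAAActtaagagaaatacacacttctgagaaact
BST2: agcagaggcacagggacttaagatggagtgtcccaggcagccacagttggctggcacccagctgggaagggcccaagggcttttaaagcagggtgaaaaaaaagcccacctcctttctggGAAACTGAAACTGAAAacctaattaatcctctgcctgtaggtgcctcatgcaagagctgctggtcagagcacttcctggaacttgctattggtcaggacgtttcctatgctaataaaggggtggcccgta

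In ISG15 and BST2 the capitals hold 2 overlapping matches, and in IFI44 and IFITM1 they hold 1. Over windows of 300 bases, 250 before and 50 after the start, 16 of the 24 interferon-list genes with a RefSeq promoter held the element (66.7%), against 3.65% of all 27305 promoters. A match describes the letters and is not shown to be a site. Genes above the dim level in 1 line alone were taken where called at least 2-fold with the same sign at each hour. The element lay in 32 of 548 promoters of those of SK-N-AS (5.84%) and in 10 of 604 of those of IMR-32 (1.66%). Among genes above the dim level in both lines it lay in 185 of 7883 (2.35%). Interferon-list genes were not taken out of these classes, so the SK-N-AS share counts genes such as IFI44 and BST2 again. Promoters with fewer than 10 CpG dinucleotides made up 27.4%, 19% and 8.47% of these classes, so genes bright in 1 line held more CpG-poor promoters than genes bright in both. These shares are descriptions, and genes that neighbour each other or share a promoter class are not independent.

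Antigen presentation differed less than the interferon list. Of 21 MHC class I genes and their peptide-loading partners, 11 were higher in SK-N-AS, 2 in IMR-32 and 8 not called, with a median of 0.30. The peptide transporter TAP1 stood at 7.41, 8.55 and 9.15 in SK-N-AS and 2.06, 3.71 and 3.99 in IMR-32, and the proteasome activators PSME1 and PSME2 differed by 2.15 ± 0.14 and 1.44 ± 0.06. HLA-B was not called, at -0.10 ± 0.17 (adjusted p = 0.633), nor was HLA-C, at -0.25 ± 0.13, whose 5 other probes ran from -0.63 to 1.88. The proteasome subunit PSMB10 was higher in IMR-32, at -1.47 ± 0.08.

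Of 25 NF-kB targets and inflammatory cytokines, 17 were higher in SK-N-AS and 2 in IMR-32, but only 7 lay above the dim level in either line. VCAM1, an adhesion receptor for leukocytes, stood at 8.43, 9.59 and 9.76 in SK-N-AS and 0.53, 0.57 and 1.01 in IMR-32, and the NF-kB subunit RELB differed by 1.89 ± 0.16. TNFAIP2 stood at 13.23, 13.66 and 13.80 against 6.50, 7.04 and 7.47.

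Of 37 TGF-beta, BMP and activin genes, 19 were higher in SK-N-AS and 7 in IMR-32, with a median of 0.78. TGFBI, a matrix protein named for its induction by TGF-beta and counted with the matrix genes, stood at 12.22, 13.09 and 13.85 in SK-N-AS and 0.44, 1.02 and 3.91 in IMR-32. TGFB1, a ligand, and TGFBR2, a receptor, were dim in IMR-32 and stood at medians of 8.82 and 8.60 in SK-N-AS. The activin receptor ACVR2B and the signal transducer SMAD9 were higher in IMR-32, at -1.54 ± 0.07 and -2.02 ± 0.23.

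Of 39 WNT pathway genes, 20 were higher in SK-N-AS and 12 in IMR-32. WNT5A, a ligand of the non-canonical branch, stood at 8.83, 9.42 and 9.76 in SK-N-AS and 2.80, 3.34 and 3.96 in IMR-32, and the receptor FZD1 differed by 3.74 ± 0.11. AXIN2, a feedback target of beta-catenin, was higher in IMR-32, at -3.04 ± 0.08. NOTCH genes gave 10 of 27 higher in SK-N-AS and 9 in IMR-32, near the shares of all genes, with the ligands JAG1 and JAG2 bright in IMR-32 alone and the target HES1 higher in SK-N-AS, at 9.26, 10.23 and 11.15 against 6.45, 6.88 and 7.39.

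Of 18 retinoic acid genes, 11 were higher in SK-N-AS and 2 in IMR-32, with a median of 1.26. CRABP1, a binding protein that carries retinoic acid in the cytoplasm, stood at 15.59, 15.74 and 16.07 in SK-N-AS and 8.83, 9.09 and 9.25 in IMR-32. CRABP2 was at least 91.2-fold higher in SK-N-AS. DHRS3, a retinal reductase, stood at 7.17, 9.61 and 11.62 in SK-N-AS, highest at 96 h, and was dim in IMR-32.

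Of the HOXB and HOXC genes, 2 and 2 lay above the dim level in SK-N-AS and 0 and 0 in IMR-32. HOXB3 and HOXB2, anterior HOXB genes, stood at medians of 11.91 and 12.51 in SK-N-AS and 0.66 and 2.85 in IMR-32, although the 2 other HOXB3 probes ran from 0.48 to 5.33. HOXC8, the neighbour of HOXC9, stood at 8.31, 8.55 and 9.16 against 0.56, 0.80 and 0.85. HOXD3 went the opposite way, at 11.51, 11.64 and 11.76 in IMR-32 against 8.97, 9.48 and 9.67. By cluster, 2 of 11 HOXA, 5 of 10 HOXB, 5 of 9 HOXC and 3 of 8 HOXD genes were higher in SK-N-AS, and 1, 0, 1 and 3 were higher in IMR-32. The HOXC gene higher in IMR-32 lost its call without 0, 6, 24 or 96 h and with either offset, and the HOXA count for IMR-32 was 0 with either offset and 2 without 96 h. Of 8 measured cofactors of the PBX, MEIS and PKNOX families, which bind DNA with HOX proteins, 5 were higher in IMR-32 against 1 in SK-N-AS. MEIS1 differed by -1.29 ± 0.09, MEIS2 by -1.46 ± 0.10, and PKNOX2 stood at 8.41, 8.53 and 9.04 in IMR-32, while SK-N-AS stood at 0.44, 0.46 and 1.29.

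Cell death genes differed by class. Of 26 caspases, death receptors and adaptors, 16 were higher in SK-N-AS and 2 in IMR-32, with a median of 0.96. CASP4, an inflammatory caspase, stood at 12.17, 12.57 and 12.87 in SK-N-AS and 6.94, 7.06 and 7.15 in IMR-32, and TNFRSF1A, the TNF receptor, at 10.08, 10.32 and 10.87 against 4.95, 5.22 and 5.72. CASP8, the initiator caspase that neuroblastomas with MYCN amplification often silence, has probes that disagree: the chosen probe differed by -0.33 ± 0.09, while the 2 other probes read 4.37 and 6.75. The mean of all probes differed by 3.59, so its direction rests on the probe. Of 17 BCL2 family genes, 9 were higher in IMR-32 against 1 in SK-N-AS, among the former BCL2 at -1.24 ± 0.12 and BID at -1.25 ± 0.10.

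Genes of the p53 response did not lean to a line, with 10 of 30 higher in SK-N-AS and 11 in IMR-32 and a median of 0.08. TP53I3, a quinone reductase, was higher in SK-N-AS at 3.41 ± 0.17, and TIGAR, which lowers glycolysis, at 10.73, 10.87 and 11.20 against 5.41, 5.79 and 5.99. PPM1D, a phosphatase that turns p53 signalling off, was higher in IMR-32 at -1.55 ± 0.07. CDKN1A, the p21 inhibitor, differed by 0.73 ± 0.20 (adjusted p = 0.0141), and MDM2, the ubiquitin ligase of p53, was not called at 0.16 ± 0.09.

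Of 33 replication and G1/S genes, 12 were higher in SK-N-AS and 11 in IMR-32, and 3 of the 33 differed at least 2-fold. With only 0, 48 and 96 h, 3 and 4 were called. With the SK-N-AS arrays labelled HOXC9 in place of those labelled GFP, 17 were higher in IMR-32. CCNE1, cyclin E, stood at 14.59, 14.72 and 14.92 in SK-N-AS and 12.23, 12.31 and 12.38 in IMR-32, a 5.35-fold difference. Of 13 D cyclin, CDK4, CDK6 and CDK inhibitor genes, 6 were higher in SK-N-AS and 4 in IMR-32. CDKN2A, which encodes p16 and ARF, stood at 14.64, 14.84 and 15.08 against 11.08, 11.15 and 11.48, and cyclin D1, CCND1, at 12.06, 12.27 and 12.46 against 13.25, 13.32 and 13.45. CDKN1C, the p57 inhibitor, was higher in IMR-32 at -3.97 ± 0.33. Of 28 mitotic genes, 13 were higher in SK-N-AS and 5 in IMR-32, the latter 10 with the HOXC9-labelled SK-N-AS arrays. CENPE was among the former at 1.47 ± 0.50, and without 0 and 48 h it differed by 0.61. Its call was lost without the hour as a block (adjusted p = 0.0602).

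Chromatin enzymes and ribosomal proteins had small differences. Of 20 DNA methylation and Polycomb genes, 9 were higher in IMR-32 against 5 in SK-N-AS. CBX8, a Polycomb reader, differed by -2.17 ± 0.10 and the methylcytosine oxidase TET1 by -1.25 ± 0.06. Of 70 cytosolic ribosomal protein genes, 35 were higher in IMR-32, 5 in SK-N-AS and 30 not called, with a median of -0.16. RPL29 and RPS3 stood furthest toward IMR-32, at -1.50 ± 0.06 and -1.05 ± 0.07, and RPL11 was higher in SK-N-AS, at 0.72 ± 0.06.

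Serine and amino acid genes leaned to IMR-32, with 12 of 24 higher in IMR-32 against 4 in SK-N-AS, and 10 of the 12 at least 2-fold. PHGDH, the first enzyme of serine synthesis, stood at 10.16, 10.64 and 11.46 in SK-N-AS and 13.97, 14.07 and 14.16 in IMR-32. PSAT1, the second enzyme, stood at 4.14, 4.55 and 4.84 against 12.89, 12.94 and 13.03, at least 51.6-fold (adjusted p = 7.76e-09). PSPH, the last enzyme, went the opposite way, at 13.67, 13.79 and 13.94 in SK-N-AS against 12.01, 12.06 and 12.19, although its 2 other probes ran from -0.32 to 3.05. The mitochondrial folate enzymes MTHFD2 and SHMT2 were higher in IMR-32, at -1.36 ± 0.09 and -1.21 ± 0.08. Of 34 hypoxia and glycolysis genes, 15 were higher in SK-N-AS and 9 in IMR-32. Adrenomedullin, ADM, stood at 10.68, 11.09 and 13.28 in SK-N-AS, highest at 48 h, and 12.66, 13.08 and 13.45 in IMR-32.

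Cancer-testis antigens, germline genes that tumours reactivate, were bright mainly in SK-N-AS. Of 25 measured genes, 13 were higher there and 4 in IMR-32, and 9 lay above the dim level in SK-N-AS against 2 in IMR-32. CTAG1A, which encodes NY-ESO-1 and was not on the list, stood at 16.76, 16.84 and 16.95 in SK-N-AS and 4.57, 4.78 and 5.47 in IMR-32, at least 771-fold (adjusted p = 5.03e-09). MAGEA6 and MAGEA12 of the list and MAGEA2B beside it stood at medians of 12.66, 13.01 and 14.41 in SK-N-AS and were dim in IMR-32. GAGE12F had the opposite pattern, at 11.64, 11.86 and 11.97 in IMR-32 against 4.80, 5.59 and 5.86. These genes have near-identical copies, so which copy a probe reads is uncertain. PRAME, outside those families, differed by 5.78 ± 0.09.

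Of the blood, endothelial, melanocyte and epithelial markers, 3, 2, 3 and 5 lay above the dim level in SK-N-AS and 1, 0, 2 and 3 in IMR-32. Of 17 blood cell markers, 8 were higher in SK-N-AS and 0 in IMR-32, and the mean level over the list ran from 4.28 to 4.77 there and from 3.17 to 3.55 in IMR-32. PTPRC, the leukocyte antigen CD45, stood at 11.78, 12.73 and 12.85 in SK-N-AS and 0.97, 1.31 and 3.11 in IMR-32, whereas its other probe differed by 1.17. Of 12 endothelial markers, 10 were higher in SK-N-AS, and the mean level ran from 5.06 to 5.51 against 3.03 to 3.34. KDR, the endothelial VEGF receptor, was dim in both lines. With dim genes left out before the fit, 0 members of the blood and endothelial lists were called higher in SK-N-AS. Melanocyte markers gave 6 of 9 higher in SK-N-AS, with TYRP1, a melanosome enzyme, at 11.81, 12.45 and 12.59 against 0.64, 0.80 and 0.92. Of 14 epithelial markers, 7 were higher in SK-N-AS and 3 in IMR-32, among the former keratin 18, KRT18, at 14.06, 14.68 and 15.77 against 9.79 to 10.40. Of 23 neural crest and Schwann cell genes, 6 were higher in SK-N-AS and 12 in IMR-32. SOX10, which marks migrating neural crest and Schwann cells, was dim in both lines, and SOX9 was higher in IMR-32 at -0.83 ± 0.14. The part of other cell types in any result was not tested.

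With dim genes left out before the fit, counts higher in SK-N-AS also fell for integrins (to 7), TGF-beta genes (10), WNT genes (11), NOTCH genes (6), retinoic acid genes (7), axon guidance genes (9), MHC class I genes (4), NF-kB targets (4) and cancer-testis antigens (4). Counts higher in IMR-32 fell with the same filter too, among others for genes near MYCN (to 6), NOTCH genes (3) and cancer-testis antigens (1). Channel genes became 3 higher in SK-N-AS and 6 in IMR-32, and neural crest and Schwann cell genes 1 and 5. The filter removes genes whose mean over the arrays of both lines is under the dim level, so genes bright in 1 line alone can drop out too.

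**Figure D3:**
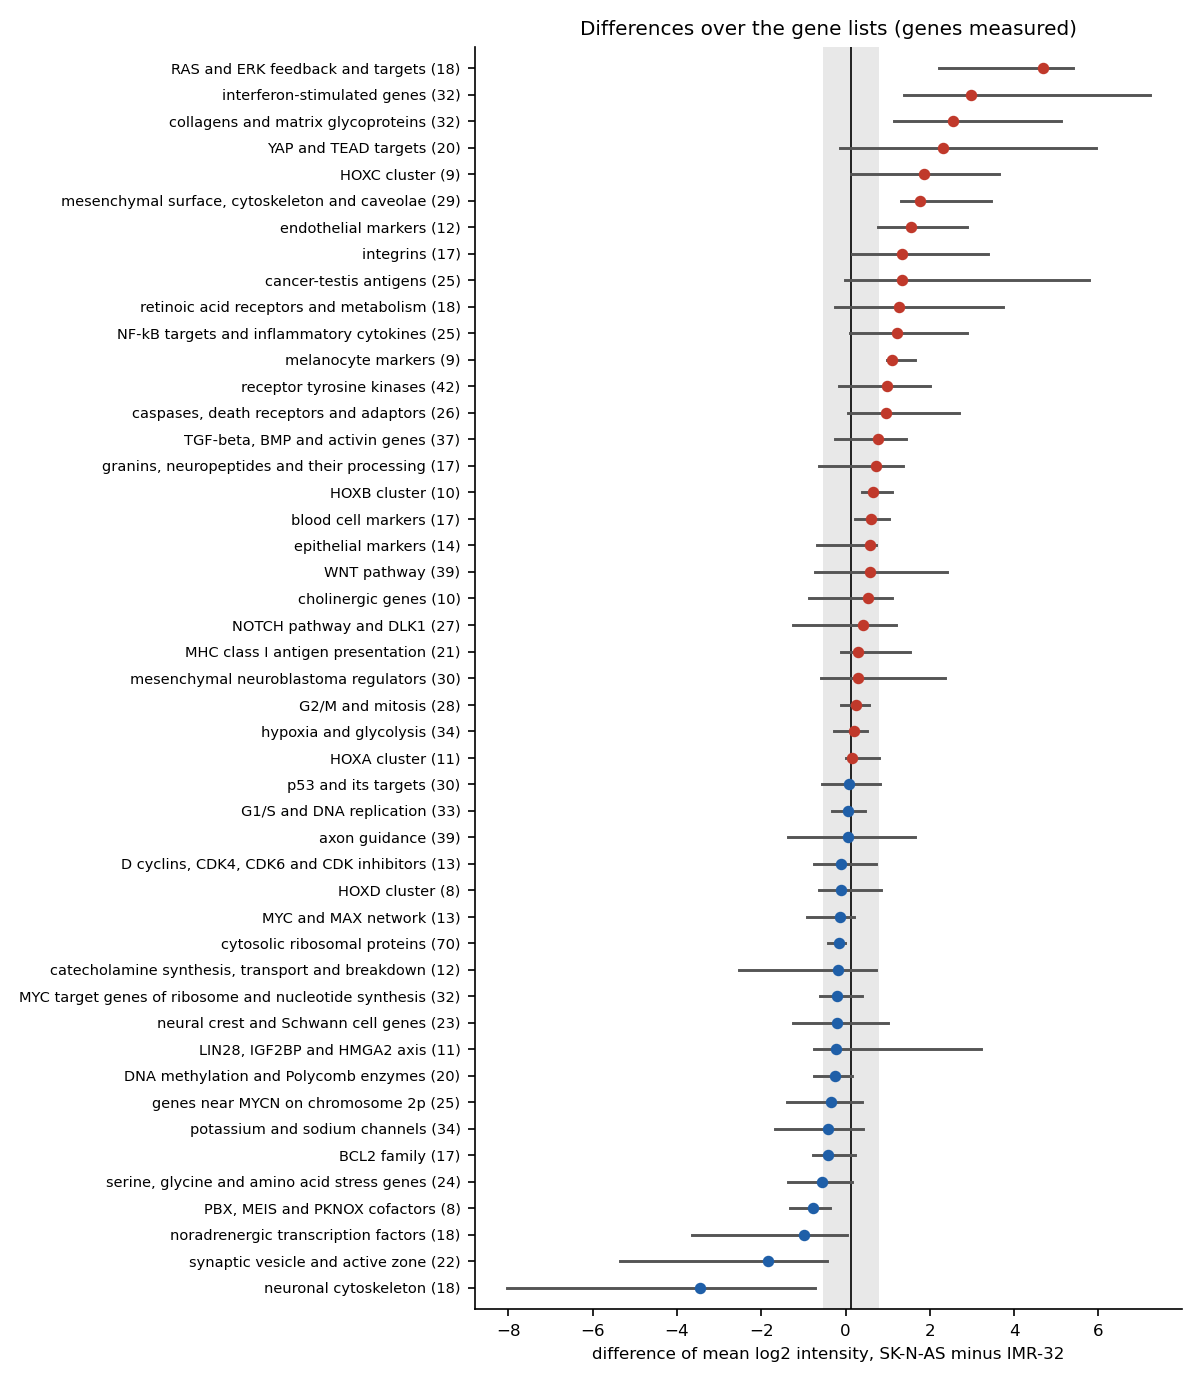
Differences of mean log2 intensity, SK-N-AS minus IMR-32, over the 47 gene lists, with the number of measured genes in brackets. Points are medians, bars span the quartiles of the list, the grey band spans the quartiles of all genes (-0.53 to 0.80) and the black line their median of 0.13. RAS and ERK feedback and target genes at 4.68 and interferon-stimulated genes at 2.97 lie furthest right, and neuronal cytoskeleton genes at -3.46 furthest left.

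No drift of the line difference over the hours was detected. The term for the line difference against log2(1 + h/6) called 0 genes by limma (0.0%), with 721 at an unadjusted p under 0.05 and a smallest adjusted p of 0.907. On simulated data with the same number of arrays this fit recovered 0% of 2-fold and 10.1% of 4-fold changes over the course. Most drifts of even 4-fold would thus be missed, and the 0 calls do not show a steady difference. The 3 genes with the smallest p were DUSP8, PIM1 and PRKD3. PIM1, a serine kinase, stood at 12.20, 12.41 and 13.47 in SK-N-AS and at 11.77, 11.89 and 12.03 in IMR-32. The kinase gene PRKD3 stood at 10.42, 10.90 and 11.05 against 10.30, 10.73 and 10.84, and DUSP8, a phosphatase of JNK and p38, at 8.81, 9.05 and 10.08 against 10.51, 10.83 and 11.13.

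Genes that lie beside each other shared differences. Over 9406 genes above the dim level in both lines, ordered along the chromosomes of GRCh38.p14, the median difference was 0.07. By chromosome it ran from -0.57 for chromosome 17 and -0.54 for chromosome 13 to 0.31 for chromosome 7 and 0.32 for chromosome 12. On chromosome 17, 63.9% of the genes were called higher in IMR-32 and 14.1% higher in SK-N-AS, against 31.9% and 38.8% over the ordered genes. In windows of 51 neighbouring genes, the lowest median lay on chromosome 17 from ATP5MC1 to SMG8, at -0.97, and the highest on chromosome 1 from EXOSC10 to CDC42, at 1.07. Windows at -0.92 on chromosome 3 (RPL15 to KIF15), -0.91 on chromosome 13 (AKAP11 to OBI1) and -0.86 on chromosome 11 (CENATAC to THYN1) lay on the IMR-32 side. A window at 1.05 on chromosome 4 (CYP2U1 to SMAD1) lay on the SK-N-AS side. Chromosome 22 held both, at 0.83 from KLHL22 to KREMEN1 and -0.94 from XRCC6 to SHANK3. Of all windows, 18.9% had a median beyond 0.5 in either direction. The share of copy number in these shifts was not tested.

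**Figure D4:**
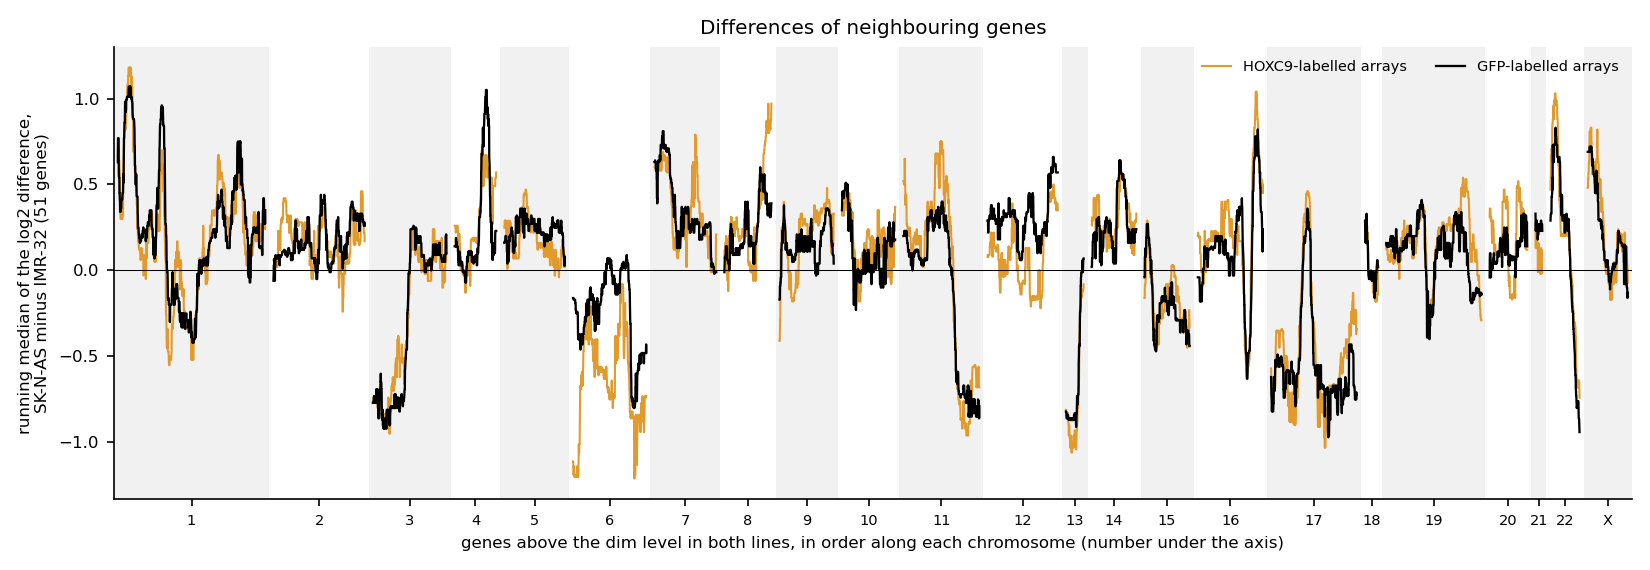
Running median of the log2 difference, SK-N-AS minus IMR-32, over 51 neighbouring genes (vertical axis) for 9406 genes above the dim level in both lines, in order along each chromosome (horizontal axis). The black line is from the GFP-labelled arrays and the orange line from the HOXC9-labelled arrays. Long stretches of chromosomes 13 and 17 lie below 0 in both, and the lines part along chromosome 6.

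The same comparison of lines in the HOXC9-labelled arrays, which share no array with the GFP-labelled ones, called 11134 genes (64.7%), 5934 higher in SK-N-AS (34.5%) and 5200 higher in IMR-32 (30.2%). Of the calls, 8047 were made in both arms in the same direction, which is 68.8% of the GFP calls and 72.3% of the HOXC9 calls, and 666 in opposite directions (5.69% and 5.98%). MYCN differed by -5.08 in the HOXC9-labelled arrays, MYC by 7.91, NEFH by -11.73, COL3A1 by 13.47 and HMGA2 by 11.83, each in the direction of the GFP-labelled arrays. There the RAS and ERK feedback and target genes gave 17 higher in SK-N-AS and 1 in IMR-32, with a median of 3.8. Interferon-stimulated genes gave 28 and 1 with a median of 3.22. For mesenchymal regulators the counts were 22 and 2 with a median of 1.95, against 15 and 7 with 0.29 in the GFP-labelled arrays, and for noradrenergic transcription factors 0 and 16 with -1.36.

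The test of the difference between the arms called 7794 genes (45.3%). With only the arrays of 0, 48 and 96 h, which leaves fewer arrays, it called 4645. DLK1, a ligand-like inhibitor of NOTCH signalling, stood at 13.22, 13.74 and 14.23 in SK-N-AS and 10.90, 11.43 and 12.43 in IMR-32 under the GFP label, a difference of 2.20 ± 0.26, but differed by -8.04 under the HOXC9 label. The difference between these was 10.25 (adjusted p = 5.64e-14). TIMP3, an inhibitor of matrix proteases, differed by 2.46 ± 0.15 and -4.58, and TES, a focal adhesion protein, by 1.81 ± 0.12 and 6.69. The serotonin receptor HTR3A was not called under the GFP label, at -0.26 ± 0.66, where it stood at 5.79, 8.15 and 11.05 in SK-N-AS, and differed by -7.02 under the HOXC9 label. Of genes named above, IFI44 differed by 0.76 and RELN by 1.56 under the HOXC9 label, against 8.12 ± 0.15 and 9.52 ± 0.14.

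**Figure D5:**
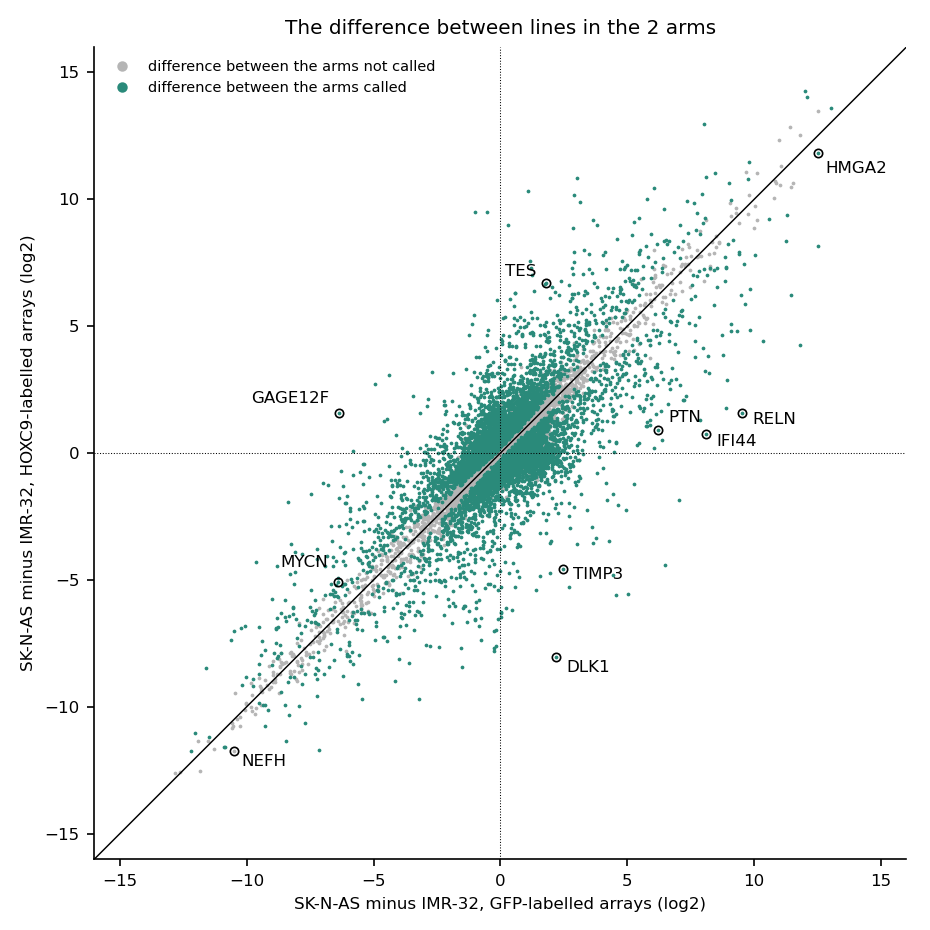
Difference between lines, SK-N-AS minus IMR-32 in log2 intensity, in the GFP-labelled arrays (horizontal axis) and in the HOXC9-labelled arrays (vertical axis). Each point is a gene, green where the difference between the arms was called (7794 genes), and the diagonal marks equal differences. MYCN, NEFH and HMGA2 lie near the diagonal, while DLK1 and TIMP3 change sign.

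Part of the difference between the arms followed chromosomes. In SK-N-AS the HOXC9-labelled arrays lay below the GFP-labelled arrays over chromosome 6, with medians over its 505 genes of -0.35 to -0.29 at the 6 hours, -0.29 of them at 0 h. In IMR-32 the same medians were 0.09 to 0.15. Over the 300 genes of chromosome 6 before PRIM2 they were -0.65 to -0.47 in SK-N-AS, and over the 205 genes from PRIM2 on they were 0.24 to 0.44 in IMR-32. Over chromosome 12 they ran between 0.18 and 0.22 in IMR-32, and SK-N-AS ran between -0.06 and -0.03. For the other 21 chromosomes the values at single hours lay between -0.17 and 0.15 in SK-N-AS and between -0.18 and 0.10 in IMR-32, so the furthest of these was close in size to the values of chromosome 12 in IMR-32. The line difference over chromosome 6 was -0.22 in the GFP-labelled and -0.66 in the HOXC9-labelled arrays. Chromosome 6 and the split at PRIM2 were picked after the values were seen, and the cause was not tested.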

How the data were processed

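Gene expression was measured on 24 arrays of 1 dye, Cy3, of which 12 enter the main comparison. The deposited table holds intensity values for 44708 features, normalized by the authors before deposit. The submitters' processing notes name limma, and its version and settings are not given in the sources used here. The arrays differed by at most 0.0723% at any rank, so they share 1 distribution. The deposited intensities were used as they stand, and log2 was taken of the deposited values with no offset. No detection flags or scanner values were used, so precision is set by how many arrays there are.

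Of the probes, 27942 had 1 gene symbol in the platform annotation and 16766 had none. Of 17370 symbols, 2936 were updated through the RefSeq gene table, 129 were ambiguous and 10 were not found. The probe with the highest mean over the 24 arrays stood for a gene, giving 17199 genes. limma 3.58.1 in R 4.3.3 was fitted with the hour as a block and moderated variances, two-sided, with Benjamini-Hochberg adjustment over all genes, and Python 3.11.15 was used for summaries. A second fit tested the line difference against time, and others covered the HOXC9-labelled arrays and the difference between the arms. The fits were tested on simulated data, where the line comparison recovered 70.7% of 2-fold and 88% of 4-fold changes among 17199 genes. Only 92 and 108 genes were given these changes, whereas 68.0% of genes were called in the data. The adjustment was thus stricter in the simulation, and these rates do not measure the power of the real comparison.

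Named genes were the 10 furthest in each direction among genes above the dim level in both lines, the 6 brightest in each direction of those dim in 1 line, up to 5 members in each direction of each of 47 gene lists, a set of lineage genes, and the leading genes of the time and arm terms. The members and lists were chosen with earlier results of these data known. Genes of the Y chromosome and of X inactivation are not reported here. Promoter sequences are from RefSeq, GRCh38.p14. The alternatives covered the block, scaling, offset, dim genes, probe choice, variance model, array weights and the arrays used.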

Additional observations from a re-analysis of the deposited data

Results flagged for a closer look

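In 35 of the 420 sets of 6 arrays behind the genes named above, 1 array lay far from the other 5. Chance gives about 1 in 20 such sets. By hour, 8 of these arrays were from 0 h, 4 from 6 h, 0 from 12 h, 4 from 24 h, 8 from 48 h and 11 from 96 h. All values here are log2 intensities.

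In SK-N-AS the array of 96 h was high for KCNC1 (9.69), MNT (12.58), IMPDH2 (11.55), CBX8 (8.82) and HAND2 (14.87), and low for MYCN (8.38), PTPRC (11.78) and SCN9A (12.52). The SK-N-AS array of 48 h was high for ADM (13.28, against 10.68 to 11.27 in the others) and VIP (15.45), and low for MXRA8 (13.58) and VCAM1 (8.43). At other hours SK-N-AS stood out for CRMP1 at 6 h (5.95), NTRK2 (3.15) and PKNOX2 (1.29) at 24 h, and SEMA5A (1.32) and UNC13A (4.18) at 0 h.

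In IMR-32 the array of 0 h was high for IGF2 (12.82, against 11.76 to 12.07), PSPH (12.19), VGLL4 (10.59), CTAG1A (5.47) and SPRY1 (2.30), and low for LUM (3.46). The IMR-32 array of 48 h was low for INA (14.50) and CCN1 (3.77), and high for PTPRC (3.11) and VCAM1 (1.01). At 6 h IMR-32 stood out for ANXA1 (3.41), COL3A1 (0.52) and TAP1 (2.06), at 24 h for EPHA3 (2.81) and UNC13A (9.94), and at 96 h for CHRNB2 (11.26), LGALS1 (10.25) and NPY (8.11). Those under 7.25 lie below the dim level.

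The line difference itself differed between the GFP-labelled and the HOXC9-labelled arrays for 7794 genes by the limma interaction test. Among those named, the GFP difference minus the HOXC9 difference was 10.25 for DLK1 (adjusted p = 5.64e-14), 7.05 for TIMP3 (adjusted p = 9.51e-13), 6.76 for HTR3A (adjusted p = 4.14e-06) and -4.88 for TES (adjusted p = 1.56e-12).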

How the results depend on the processing

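The count of called genes lay between 11409 and 12476 under the scalings, offsets, probe choices, variance models, weights and array sets tried, other than those named here. With only 0, 48 and 96 h it was 7734, of which 4293 were higher in SK-N-AS. With a 2-fold minimum it was 5876, with 3290 higher in SK-N-AS and 2586 higher in IMR-32. With dim genes left out it was 7833 of 10319 genes tested, 4254 of them higher in SK-N-AS. Leaving out each hour in turn gave 10823 to 11472 calls, 6084 to 6482 higher in SK-N-AS and 4734 to 5003 higher in IMR-32. For the HOXC9-labelled arrays it gave 10358 to 10996, 5522 to 5895 and 4836 to 5101. The difference between the arms called 4909 genes with dim genes left out, 4645 with only 0, 48 and 96 h, and 6380 to 7854 with each hour left out. The time term called 0 genes by limma in each fit tried. Quantile normalization moved the median of all genes from 0.13 to 0.06 and the share of calls higher in SK-N-AS from 56.4% to 52.7%. Without the hour as a replicate block 12083 genes were called, 6777 and 5306 by direction, 11298 in the HOXC9-labelled arrays and 7722 for the difference between the arms. Of the named genes, PHOX2A, SLC6A2, CENPE, NTRK2 and SOX10 lost their calls in that fit, and HLA-C gained one. Arrays of the same hour correlated at -0.05 to 0.056 in their deviations, and 1 of 6 SK-N-AS arrays correlated best with its own hour. With the SK-N-AS arrays labelled HOXC9 in place of those labelled GFP, differences turned to -0.22 for CHGA, -1.16 for DBH, -4.96 for DLK1, -0.07 for HAND2, 0.44 for HLA-C, -0.68 for INSM1, 0.97 for ITGA4, -0.40 for MDM2, 1.37 for NPY, 0.64 for PHOX2A, 2.04 for PRRX1, -1.92 for SLC6A2 and -3.81 for TIMP3. The mean of all probes gave 3.59 for CASP8 and -2.17 for NTRK2, and the probe of highest variance gave 6.75 for CASP8, -6.03 for NTRK2, 1.88 for HLA-C and -0.24 for MDM2. In the setting with the HOXC9-labelled SK-N-AS arrays, CHGA, HAND2 and PHOX2A were not called by limma (adjusted p = 0.419, 0.643 and 0.208). Their differences were lost there and not called in reverse. The cause of these changes was not tested, beyond the probes themselves differing. Of 4362 values of named genes under the alternatives, 57 lost and 8 gained their call, among them CENPE, lost without 48 h (1.28, adjusted p = 0.0957). Of 1974 list counts, 135 moved by over 1.5 times.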
